A study of Mus musculus with 4 samples.

Results

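The genes examined here encode the subunits of potassium channels, as measured in mouse plantaris muscle after overload. They were taken as every gene with a Kcn symbol (Kcn, letters, then a number) and a probe set naming that gene alone, with the brightest probe set on average standing for genes that had several. This gave 89 genes of 22180 on the array, of which 87 code for proteins and 2, Kcnq1ot1 and Kcnd3os, are long non-coding RNAs. Of the 89, 34 lay above 3.23, the median log2 value of all genes, on at least 1 array, and these are described with values. That is 38.2% of the potassium channel genes, compared with 54.2% (12018 genes) of all genes.

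The study compared control mice with M-PDK1KO mice, which lack PDK1 (gene Pdpk1) in skeletal muscle because Cre driven by the myosin light chain 1f promoter removes a floxed Pdpk1 allele. The labels call the control mice wild type, whereas the methods describe flox/flox animals without Cre, and all were backcrossed to C57/BL6. Male mice of each genotype underwent sham surgery or synergistic muscle ablation, in which the gastrocnemius and soleus of both lower limbs were removed so that the plantaris carried their load, and plantaris RNA was collected 10 days later. The 4 conditions are therefore control sham, control ablation, M-PDK1KO sham and M-PDK1KO ablation, each measured on 1 Affymetrix Mouse Gene 2.0 ST array, with the age of the mice and the pooling of animals not given for the arrays.

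Potassium channels set the resting potential of the muscle fiber and shorten its action potential. Voltage-gated channels open on depolarization and repolarize the membrane, inward rectifiers and two-pore-domain channels carry current near rest, and calcium-activated channels open when cytosolic calcium rises. Accessory subunits form no pore themselves but change how pore subunits gate or reach the membrane. In innervated adult fibers the small-conductance calcium-activated channel SK3 is scarce, and it is known to appear in immature and denervated fibers.

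The response to ablation was the log2 value after ablation minus that after sham surgery, computed in each genotype. With 1 array a condition neither response has an error of its own, so ablation was tested only over both genotypes, with 2 ablation arrays against 2 sham arrays in limma and Benjamini-Hochberg adjustment over all 22180 genes. The spread in that test is the difference between the responses of the genotypes, with 1 residual degree of freedom. The genotypes are different mice, and ablation was of both limbs, so that spread includes differences between animals. Those differences cannot be told apart from a genotype difference in the response. Arrays had medians of 2.66 to 2.69 and values from 0.70 to 13.2. Pdpk1 had log2 values of 6.81 and 6.85 on the control sham and ablation arrays and 5.96 and 6.23 on the M-PDK1KO arrays. The defining genes of muscle fibers were present on every array, with median log2 values of 11.9 to 12.3 over 6 genes.

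After ablation, 5 potassium channel genes rose and 10 fell by the limma test. The genes that rose were Kcnn3 and Kcnk1, Kcnk6, Kcne1l and Kcne4, whereas those that fell with levels above the median were the voltage-gated Kcna4, Kcna5, Kcna7, Kcnc1, Kcng4 and Kcnq5 together with Kcnj11 and Kcnma1. The other 2 called genes, Kcnh5 and Kcnf1, remained under the median of all genes on each array. The share called higher was 5.62%, against 10.4% of all genes, and the share called lower was 11.2%, against 10.6%, so the first share lay under that of all genes and the second near it. Among the 34 genes above the median, 14.7% were called higher and 23.5% lower, compared with 18.2% and 19.1% of all genes above it. At an unadjusted p under 0.05, 27 of the 89 genes passed, against 32.9% of all genes. With ablation as the only term and each array left out in turn, 1 to 4 genes were called higher and 3 to 7 lower. Of the 15 genes called with all arrays, 11 lost the call in at least 1 of these fits and 4 (Kcnn3, Kcna4, Kcnc1 and Kcnq5) did not. These fits hold 1 array of 1 surgery, so their spread comes from the 2 arrays of the other surgery, and the lone array is assumed to vary like those. The fewest calls, 1 higher and 3 lower, came without the M-PDK1KO ablation array, whereas without the control sham array there were 2 and 6, without the control ablation array 4 and 4, and without the M-PDK1KO sham array 3 and 7.

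**Figure D1:**
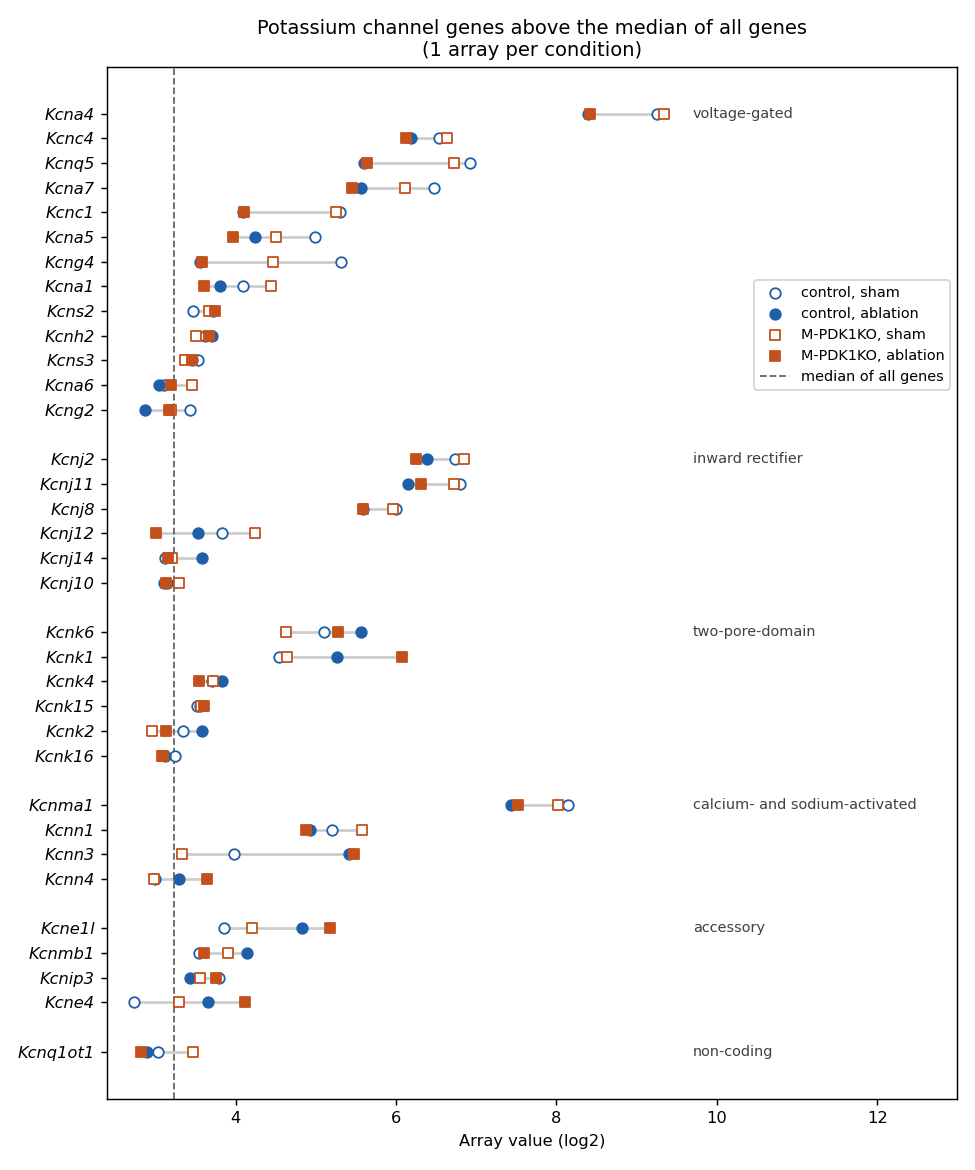
Deposited log2 value (x axis) of each of the 34 potassium channel genes above the median of all genes (dashed line, 3.23), grouped by family, with open symbols for sham and filled symbols for ablation. For Kcnc1, Kcnq5 and Kcng4 both filled symbols lie to the left of both open ones, and for Kcnn3, Kcnk1 and Kcne1l to the right.

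In these whole-muscle RNA samples, fewer cells of a type and less RNA per cell cannot be told apart. Markers of other cells moved with ablation, while of all genes 10.4% were called higher and 10.6% lower. Of 8 macrophage markers 7 rose (median response 2.15 in control muscle and 2.24 in M-PDK1KO muscle), with a summed level of 7.89 and 8.01 on the log2 scale on the sham arrays and 10.2 and 10.3 on the ablation arrays. Of 6 fibroblast markers 5 rose (2.66 and 2.64), with summed levels of 11.6 and 11.8 after sham surgery and 13.9 and 14.0 after ablation. Of 7 smooth muscle and pericyte markers 5 rose (0.63 and 0.61), with summed levels of 11.0 and 11.1 after sham surgery and 11.5 and 11.4 after ablation. No marker of these lists was at 0. The 6 muscle fiber genes had median responses of -0.19 and -0.12, with 2 (Myh4 and Ttn) called lower and none higher. The part of these markers in the potassium channel results was not tested.

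The stretch before the transcription start is shown for the 2 called genes with the largest falls and the 2 with the largest rises in the smaller of their 2 responses, among called genes above the median with 1 start listed. The sequences are the 250 bases before the start in RefSeq (mouse build GRCm38.p6), written 5′ to 3′ on the strand of the gene, with E-boxes (CANNTG, the motif of myogenic bHLH factors such as MyoD and myogenin) in capitals. They lie at chr7:46396218-46396467 (plus strand) for Kcnc1, chr8:119635681-119635930 (minus strand) for Kcng4, chr3:89519914-89520163 (plus strand) for Kcnn3 and chrX:142306199-142306448 (minus strand) for Kcne1l.
Kcnc1: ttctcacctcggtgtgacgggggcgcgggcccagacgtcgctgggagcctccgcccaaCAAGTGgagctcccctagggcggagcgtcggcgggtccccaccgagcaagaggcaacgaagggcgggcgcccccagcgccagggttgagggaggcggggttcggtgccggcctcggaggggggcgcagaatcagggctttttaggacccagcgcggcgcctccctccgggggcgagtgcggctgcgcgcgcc
Kcng4: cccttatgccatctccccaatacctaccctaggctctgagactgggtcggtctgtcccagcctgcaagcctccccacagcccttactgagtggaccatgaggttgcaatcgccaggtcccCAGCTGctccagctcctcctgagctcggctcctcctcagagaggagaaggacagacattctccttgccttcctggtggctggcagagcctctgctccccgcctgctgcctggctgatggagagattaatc
Kcnn3: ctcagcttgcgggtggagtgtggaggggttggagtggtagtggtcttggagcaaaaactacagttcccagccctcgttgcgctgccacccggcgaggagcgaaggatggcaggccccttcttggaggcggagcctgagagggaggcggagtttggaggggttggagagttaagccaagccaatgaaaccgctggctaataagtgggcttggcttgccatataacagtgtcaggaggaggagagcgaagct
Kcne1l: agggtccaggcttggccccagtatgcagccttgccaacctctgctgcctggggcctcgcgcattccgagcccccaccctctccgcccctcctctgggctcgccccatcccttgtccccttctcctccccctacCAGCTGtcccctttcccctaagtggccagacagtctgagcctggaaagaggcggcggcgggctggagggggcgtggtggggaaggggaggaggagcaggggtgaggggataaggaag

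Kcnc1, Kcng4 and Kcne1l each held 1 E-box in this window and Kcnn3 held none. The window of Kcne1l also held 1 TEAD motif (CATTCC), and none of the 4 windows held an AP-1 motif (TGANTCA), a MEF2 motif or a cAMP response element (TGACGTCA), all searched on both strands. The 4 windows differ in base composition, with a GC content of 74.4% in Kcnc1, 60.4% in Kcng4, 58.8% in Kcnn3 and 68% in Kcne1l. Promoters were listed for 69 of the 89 genes and for 11 of the 13 called genes above the median. An E-box was present in 66.2% of all 32851 mouse promoters of this length, in 5 of the 8 windows of the genes called lower and in 3 of the 4 windows of the genes called higher. A TEAD motif was present in 12.6% of all promoters, and in 1 and 2 of those windows. The AP-1, MEF2 and cAMP response elements were present in 6.75%, 2.92% and 1.55% of all promoters and in none of those windows, in which a gene with several listed starts counts more than once.

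Among the voltage-gated pore subunits, the called genes were all lower after ablation. Of 36 such genes, 13 were above the median, and of all 36, 8 (22.2%, against 10.6% of all genes) fell, none rose (10.4% of all genes) and 28 did not pass the test. The difference from all genes or between families was not tested. The median response of the 36 was -0.10 in control muscle and -0.08 in M-PDK1KO muscle, compared with -0.02 in both genotypes over all genes.

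Kcnc1 encodes Kv3.1, a channel that opens at depolarized potentials and closes fast, as suits rapid repolarization. Its log2 value was 5.31 on the control sham array, 4.09 on the control ablation array, 5.26 on the M-PDK1KO sham array and 4.11 on the M-PDK1KO ablation array. The values of both genotypes nearly coincided after each surgery, and the ablation arrays lay well under the sham arrays. Kcnc1 fell to 0.430-fold in control muscle and 0.451-fold in M-PDK1KO muscle, with a mean response of -1.18 (95% interval -1.47 to -0.89, limma adjusted p = 0.00309). Kcnc4 encodes Kv3.4, a fast-inactivating channel of the same subfamily that works in skeletal muscle. It had log2 values of 6.53 and 6.19 on the control sham and ablation arrays and 6.64 and 6.12 on the M-PDK1KO arrays. Its ablation arrays were also both under its sham arrays, but the mean response of -0.43 did not pass the test (limma adjusted p = 0.0614, and 0.0369 with ablation as the only term).

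Kcnq5 encodes Kv7.5, a slowly activating channel of the M-current type that is found in skeletal and smooth muscle. Its log2 value was 6.92 on the control sham array, 5.61 on the control ablation array, 6.73 on the M-PDK1KO sham array and 5.64 on the M-PDK1KO ablation array. The surgeries did not overlap, and the 2 ablation arrays lay close together. Kcnq5 fell by 1.31 in control muscle and 1.09 in M-PDK1KO muscle on the log2 scale, with a mean of -1.20 (95% interval -1.51 to -0.89, limma adjusted p = 0.00361). A second probe set of this gene remained between 2.70 and 2.72 on all 4 arrays, under the median of all genes. With the mean of both probe sets the response was -0.61 (limma adjusted p = 0.0204).

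Kcna4 encodes Kv1.4, which carries a rapidly inactivating A-type current. Its log2 value was 9.25 on the control sham array and 8.39 on the control ablation array, with 9.34 and 8.41 on the corresponding M-PDK1KO arrays. Both ablation arrays were lower than both sham arrays, and the genotypes differed by at most 0.09 after either surgery. The mean response was -0.90 (95% interval -1.18 to -0.61, limma adjusted p = 0.00643). The second probe set of Kcna4 read 2.51, 2.55, 2.42 and 2.35 in the same order of arrays, without the step between surgeries, and with the mean of both the response was -0.46 (limma adjusted p = 0.0465).

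Kcna7 and Kcna5 encode the Shaker-related subunits Kv1.7 and Kv1.5. Kcna7 had log2 values of 6.47 and 5.56 on the control sham and ablation arrays and 6.11 and 5.45 on the M-PDK1KO arrays. Kcna5 had 4.99 and 4.24 on the control arrays and 4.50 and 3.96 on the M-PDK1KO arrays. Both genes were lower on each ablation array than on each sham array, and within each surgery the M-PDK1KO array was the lower one. Kcna7 fell with a mean response of -0.79 (95% interval -1.10 to -0.47, limma adjusted p = 0.0127) and Kcna5 with -0.65 (-0.96 to -0.34, limma adjusted p = 0.0205). With ablation as the only term, both passed the test without the M-PDK1KO sham array, but not without the control sham, control ablation or M-PDK1KO ablation array (limma adjusted p = 0.054, 0.06 and 0.0909 for Kcna7 and 0.218, 0.109 and 0.267 for Kcna5). Kcna1, the gene for Kv1.1, had 4.10 and 3.81 in control muscle and 4.44 and 3.60 in M-PDK1KO muscle. Its arrays did not overlap between surgeries either, but the responses of -0.29 and -0.84 were unequal and their mean did not pass the test (limma adjusted p = 0.0725, and 0.0346 after quantile normalization).

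Kcng4 encodes Kv6.4, an electrically silent subunit that forms channels only together with Kv2 subunits. Its log2 value was 5.32 on the control sham array, 3.55 on the control ablation array, 4.46 on the M-PDK1KO sham array and 3.58 on the M-PDK1KO ablation array. The genotypes differed on the sham arrays and coincided on the ablation arrays. Kcng4 was at 0.294-fold after ablation in control muscle and 0.543-fold in M-PDK1KO muscle, and its mean response was -1.32 (95% interval -1.89 to -0.76, limma adjusted p = 0.0149). The gene did not pass the test with ablation as the only term and without the control ablation array (limma adjusted p = 0.0899) or the M-PDK1KO ablation array (0.0938).

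Of the 14 inward rectifier genes, 6 were above the median, and 1 of the 14 fell (7.14%, against 10.6% of all genes) and none rose. Kcnj11 encodes Kir6.2, the pore of the ATP-sensitive channel of skeletal muscle, which opens when the energy state of the fiber drops. Its log2 values were 6.80 and 6.14 on the control sham and ablation arrays and 6.72 and 6.31 on the M-PDK1KO arrays. Both ablation arrays were lower than both sham arrays, and Kcnj11 fell with a mean response of -0.54 (95% interval -0.85 to -0.22, limma adjusted p = 0.038). With ablation as the only term and 1 array left out, Kcnj11 did not pass the test in any of the 4 fits (limma adjusted p = 0.062 to 0.115). Kcnj8 encodes Kir6.1, the pore of the ATP-sensitive channel of vascular smooth muscle. It had 6.00 and 5.58 in control muscle and 5.97 and 5.58 in M-PDK1KO muscle, with a mean response of -0.40 (limma adjusted p = 0.066, and 0.0417 with ablation as the only term).

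Kcnj2 and Kcnj12 encode Kir2.1 and Kir2.2, strong rectifiers that hold the resting potential. Kcnj2 had log2 values of 6.73 and 6.38 on the control sham and ablation arrays and 6.84 and 6.25 on the M-PDK1KO arrays, with a mean response of -0.47 (limma adjusted p = 0.0532, and 0.0444 after median centring). Kcnj12 had 3.83 and 3.53 on the control arrays and 4.24 and 3.01 on the M-PDK1KO arrays. Both genes had lower values on each ablation array than on each sham array, but neither passed the test with the values as deposited and both terms. The 2 responses of Kcnj12 were far apart, -0.30 in control muscle and -1.23 in M-PDK1KO muscle (limma adjusted p = 0.0793 for their mean, and 0.0381 after quantile normalization).

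Of the 13 two-pore-domain genes, 6 were above the median, and of the 13, 2 rose (15.4%, near the 10.4% of all genes), none fell and 11 did not pass the test. Kcnk1 encodes TWIK-1, a weakly conducting background channel. Its log2 value was 4.54 on the control sham array, 5.26 on the control ablation array, 4.64 on the M-PDK1KO sham array and 6.08 on the M-PDK1KO ablation array. The sham arrays of the genotypes were close, and the M-PDK1KO ablation array was the highest of the 4. Kcnk1 was 1.65-fold higher after ablation in control muscle and 2.70-fold higher in M-PDK1KO muscle, and the mean response was 1.08 (95% interval 0.59 to 1.57, limma adjusted p = 0.0172). Kcnk1 did not pass the test with ablation as the only term and without the control sham, M-PDK1KO sham or M-PDK1KO ablation array (limma adjusted p = 0.114, 0.0843 and 0.0543).

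Kcnk6 encodes TWIK-2, a close relative of TWIK-1 that also works in macrophages and vascular smooth muscle. It had log2 values of 5.10 and 5.57 on the control sham and ablation arrays and 4.62 and 5.27 on the M-PDK1KO arrays. Both ablation arrays lay above both sham arrays, and the M-PDK1KO array was the lower one after each surgery. The mean response was 0.56 (95% interval 0.26 to 0.86, limma adjusted p = 0.0292), and the gene no longer passed the test with ablation as the only term (adjusted p = 0.0777). With that term and without the control ablation, M-PDK1KO sham or M-PDK1KO ablation array, the adjusted p from limma was 0.345, 0.311 and 0.139. Kcnk2, which encodes the mechanically gated channel TREK-1, had 3.34 and 3.58 in control muscle and 2.96 and 3.13 in M-PDK1KO muscle, with surgeries that overlapped and a mean response of 0.20 (limma adjusted p = 0.298).

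Of the 8 calcium- and sodium-activated genes, 4 were above the median, and of the 8, 1 rose and 1 fell (12.5% each, near the 10.4% and 10.6% of all genes). Kcnn3 encodes SK3, an apamin-sensitive small-conductance channel known from immature and denervated fibers. Its log2 value was 3.98 on the control sham array, 5.42 on the control ablation array, 3.33 on the M-PDK1KO sham array and 5.48 on the M-PDK1KO ablation array. The ablation arrays of both genotypes reached nearly the same value from unequal sham values. Kcnn3 was 2.71-fold higher in control muscle and 4.42-fold higher in M-PDK1KO muscle, with a mean response of 1.79 (95% interval 1.31 to 2.28, limma adjusted p = 0.00398). Genes of immature and denervated fibers moved in the same arrays, with 7 of the 11 measured called higher and 1 (Musk) called lower, against 10.4% and 10.6% of all genes. Their median response was 0.95 in control muscle and 0.91 in M-PDK1KO muscle. Myh3, the embryonic myosin heavy chain gene, rose by 5.91 and 5.84 on the log2 scale, Runx1 by 2.47 and 2.98, and Ncam1 by 1.73 and 2.18. The link of these genes to the Kcnn3 values was not tested, and whole-muscle RNA does not show which cells held Kcnn3.

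Kcnma1 encodes the pore of the BK channel, which opens on calcium and depolarization together. Its log2 values were 8.15 and 7.44 on the control sham and ablation arrays and 8.02 and 7.52 on the M-PDK1KO arrays. Both ablation arrays were lower, and Kcnma1 fell with a mean response of -0.61 (95% interval -0.92 to -0.30, limma adjusted p = 0.0241). A second probe set, between 2.48 and 2.88 on the 4 arrays and so under the median of all genes, had responses of -0.33 and -0.16, and with the mean of both probe sets the response was -0.43 (limma adjusted p = 0.0645). Kcnma1 did not pass with ablation as the only term and without the control sham, control ablation or M-PDK1KO ablation array (limma adjusted p = 0.0684, 0.0737 and 0.0611). Kcnn1, for the small-conductance subunit SK1, had 5.20 and 4.93 in control muscle and 5.58 and 4.87 in M-PDK1KO muscle (limma adjusted p = 0.0795, and 0.0492 after quantile normalization). Kcnn4 encodes the intermediate-conductance channel of T cells, macrophages and fibroblasts and had 2.99 and 3.29 in control muscle and 2.99 and 3.64 in M-PDK1KO muscle. The Kcnn4 arrays did not overlap between surgeries, while its mean response of 0.47 did not pass the test (limma adjusted p = 0.0705).

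Among the 16 accessory subunits, 4 were above the median, and of the 16, 2 rose (12.5%, near the 10.4% of all genes) and none fell. Kcne1l (also called Kcne5) and Kcne4 encode single-span subunits that inhibit several voltage-gated channels when the proteins are expressed together. Kcne1l had log2 values of 3.85 and 4.83 on the control sham and ablation arrays and 4.21 and 5.17 on the M-PDK1KO arrays. Kcne4 had 2.74 and 3.65 on the control arrays and 3.30 and 4.12 on the M-PDK1KO arrays. For both genes each ablation array was above each sham array, and the M-PDK1KO array was the higher one after each surgery. The mean response was 0.97 for Kcne1l (95% interval 0.69 to 1.26, limma adjusted p = 0.00504) and 0.87 for Kcne4 (0.58 to 1.16, limma adjusted p = 0.00723). With ablation as the only term, neither passed the test without the control sham array (limma adjusted p = 0.0536 for Kcne1l and 0.163 for Kcne4) or the M-PDK1KO ablation array (0.0753 and 0.216), and Kcne4 did not pass without the control ablation array (0.0611).

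Kcnmb1 encodes the beta subunit that raises the calcium sensitivity of the BK channel in smooth muscle. Its log2 values were 3.55 and 4.14 on the control sham and ablation arrays and 3.91 and 3.60 on the M-PDK1KO arrays. The surgeries overlapped, since the value was higher after ablation in control muscle and lower in M-PDK1KO muscle (responses 0.59 and -0.31, limma adjusted p = 0.748 for their mean). Myh11, the smooth muscle myosin heavy chain gene, had responses of 0.26 and -0.27, while Acta2 had 1.64 and 1.06 and Cnn1 1.57 and 1.52, and their part in the Kcnmb1 values was not tested. The imprinted antisense transcript Kcnq1ot1 had 3.03 and 2.90 in control muscle and 3.46 and 2.82 in M-PDK1KO muscle. It exceeded the median of all genes on the M-PDK1KO sham array alone and did not pass the test (limma adjusted p = 0.165).

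**Figure D2:**
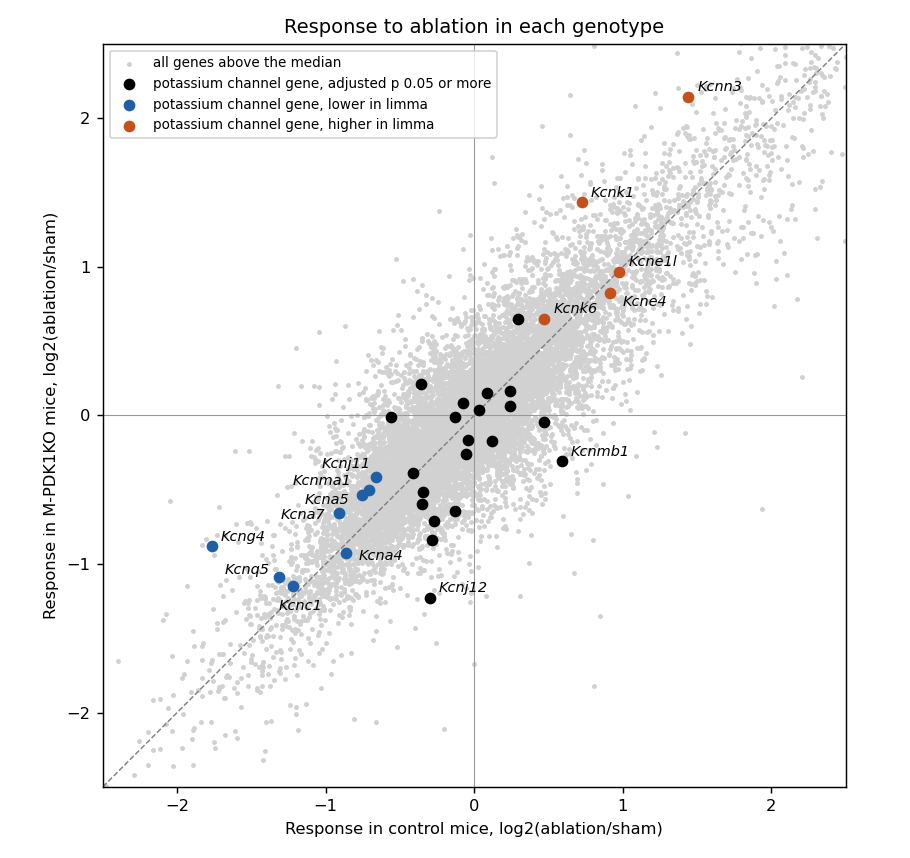
Response to ablation in control mice (x axis) against that in M-PDK1KO mice (y axis), both as log2(ablation/sham), for the 34 potassium channel genes above the median (large points, colored where limma called them) and all genes above the median (gray points, with genes beyond the axes not drawn). Kcnn3 (1.44 and 2.14) and Kcnk1 (0.72 and 1.43) lie above the dashed line of equal responses, as does Kcng4 (-1.77 and -0.88), while Kcnj12 (-0.30 and -1.23) and Kcnmb1 (0.59 and -0.31) lie under it.

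The remaining 11 genes above the median had log2 values between 2.87 and 3.83, and none was called. They were the voltage-gated subunits Kcna6, Kcng2, Kcnh2, Kcns2 and Kcns3, the inward rectifiers Kcnj10 and Kcnj14, the two-pore-domain genes Kcnk4, Kcnk15 and Kcnk16, and the accessory gene Kcnip3. Their responses ran from -0.56 to 0.47 in control muscle and from -0.26 to 0.21 in M-PDK1KO muscle. At the edge of the set, Kcnk16 and Kcnj10 reached 3.25 and 3.29 on their highest arrays, whereas Kcnj9 and Kcnj15 stopped at 3.16. The 55 genes under the median on every array had values between 1.65 and 3.16. Of these, Kcnh5 (2.54 and 2.00 in control muscle, 2.48 and 2.05 in M-PDK1KO muscle) and Kcnf1 (2.94 and 2.48, 2.53 and 2.06) were called lower, with limma adjusted p = 0.0398 and 0.0431. With ablation as the only term, Kcnf1 did not pass the test with all 4 arrays or without any 1 of them, and Kcnh5 passed with all 4 but not without any 1 of them.

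Counted without a test, both ablation arrays lay outside both sham arrays for 50 of the 89 genes (56.2%), with 18 above and 32 below, compared with 57.5% of all genes. Among the 34 genes above the median the count was 25 (73.5%), against 74.1% of all genes above it. By the fold cutoffs used in the study (2-fold and 0.5-fold), 1 gene was past 2-fold in control mice (Kcnn3; 4.49% of all genes) and 3 were past 0.5-fold (Kcnc1, Kcng4 and Kcnq5; 2.54% of all genes). In M-PDK1KO mice, 2 genes (Kcnn3 and Kcnk1) were past 2-fold, as were 4.77% of all genes, and 3 (Kcnc1, Kcnj12 and Kcnq5) were past 0.5-fold, as were 2.71%. The median response of the 89 genes was -0.05 in control muscle and -0.04 in M-PDK1KO muscle, compared with -0.02 in both genotypes for all genes. For the 34 genes above the median it was -0.13 and -0.22, compared with -0.05 and -0.04 for all genes above it.

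A list of partners of these channels and of other channels, all with other symbols, was measured for 13 of its 14 genes. Hcn2, Hcn3, Hcn4 and Tmem175 on this list encode channels themselves, and none of these was called. Of the 13, 3 fell (against 10.6% of all genes), none rose (10.4% of all genes) and 6 lay under the median of all genes on every array. The median response was -0.26 in control muscle and -0.16 in M-PDK1KO muscle. Lrrc38, an auxiliary subunit of the BK channel, had log2 values of 5.24 and 3.60 on the control sham and ablation arrays and 5.48 and 3.81 on the M-PDK1KO arrays. Abcc9, which encodes the sulfonylurea receptor SUR2 that pairs with Kir6.2 in muscle, had 9.92 and 9.13 in control muscle and 9.98 and 9.12 in M-PDK1KO muscle. Amigo1, an adhesion protein that accompanies Kv2 channels, had 5.38 and 4.76 in control muscle and 5.54 and 4.51 in M-PDK1KO muscle. All 3 were lower on each ablation array than on each sham array, with limma adjusted p = 0.0013 for Lrrc38, 0.0082 for Abcc9 and 0.0157 for Amigo1.

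Other channels of the fiber membrane were counted beside them. Of 7 measured genes of a list of sodium and chloride channels and their anchor, 3 fell (Clcn1, Scn4b and Ank3, which encodes the scaffold ankyrin-G and no channel) and 1 (Scn3b) rose, with a median response of -0.30 in control muscle and -0.24 in M-PDK1KO muscle. Clcn1, the chloride channel that stabilizes the resting fiber, fell by 1.86 and 1.85 on the log2 scale, and Scn4b, a sodium channel beta subunit, by 1.65 and 1.76. Of 14 genes of excitation-contraction coupling, 8 fell and none rose, with medians of -0.64 and -0.66. Beside both lists, 10.6% of all genes fell and 10.4% rose. Jph1 and Jph2, which tether the transverse tubule to the sarcoplasmic reticulum, fell by 1.14 and 0.98 in control muscle and by 1.26 and 1.02 in M-PDK1KO muscle.

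**Figure D3:**
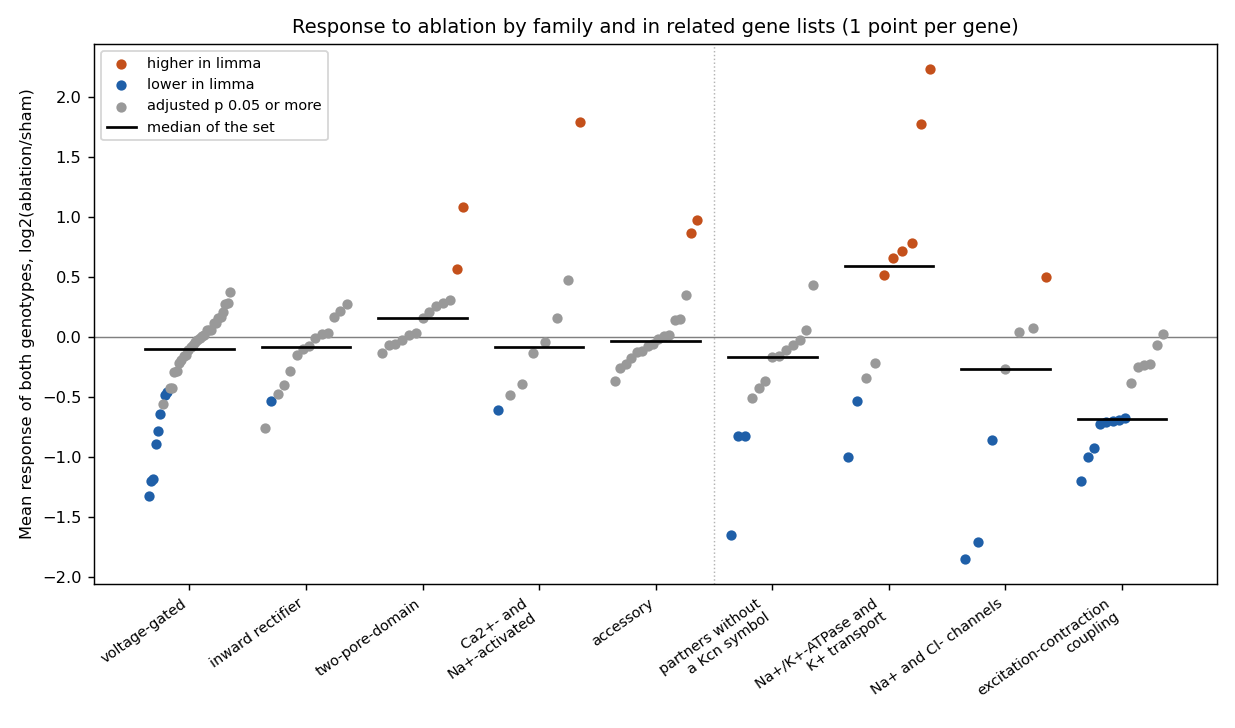
Mean response of both genotypes, log2(ablation/sham), on the y axis for each gene (1 point) of the 5 protein-coding potassium channel families (left of the dotted line) and of 4 related gene lists (right), with black lines for the median of each set and colors for genes called by limma. Called lower were 8 of 36 voltage-gated genes and 8 of 14 excitation-contraction coupling genes (10.6% of all genes), and called higher were 2 of 13 two-pore-domain and 2 of 16 accessory genes (10.4% of all genes), with no test between sets.

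Between the genotypes, no potassium channel gene was called by the genotype term of the same limma fit, nor was any of the 22180 genes (0%), Pdpk1 included (adjusted p = 0.870). At an unadjusted p under 0.05, 11 of the 89 genes passed (12.4%, against 5.45% of all genes). Of these, Kcnk6, Kcna5 and Kcnk2 were lower and Kcne1l and Kcne4 higher in M-PDK1KO mice after both surgeries, and the other 6 were under the median of all genes. None of the 89 differed 2-fold between genotypes after sham surgery, where 0.162% of all genes did, or after ablation, where 0.14% did.

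The differences, as log2(M-PDK1KO/control), ran from -0.85 to 0.56 over the 34 genes after sham surgery and from -0.54 to 0.81 after ablation. At the low end on the sham arrays were Kcng4 (-0.85), Kcnn3 (-0.64) and Kcna5 (-0.49), which had differences of 0.03, 0.06 and -0.27 on the ablation arrays. At the high end on the sham arrays were Kcne4 (0.56), Kcnq1ot1 (0.44) and Kcnj12 (0.41). After ablation, Kcnk1 was at 0.81, Kcne4 at 0.47 and Kcnmb1 at -0.54. The difference between the responses (M-PDK1KO minus control) was highest for Kcng4 (0.88), Kcnk1 (0.71) and Kcnn3 (0.70) and lowest for Kcnj12 (-0.93), Kcnmb1 (-0.90) and Kcna1 (-0.55). These differences rest on 1 array each and were not tested. A difference of response past 2-fold either way was found for 1 of the 89 genes, Kcnk7, which was under the median on every array, and for 0.762% of all genes.

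**Figure D4:**
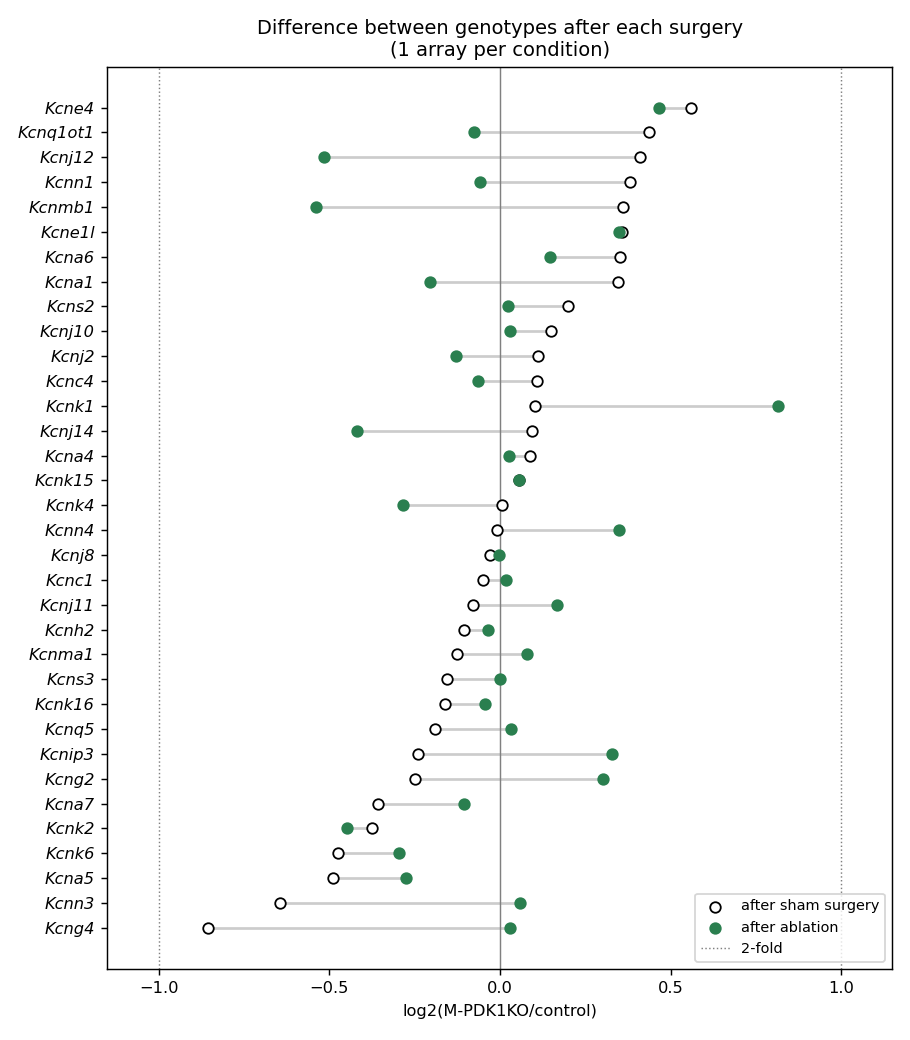
Difference between genotypes, log2(M-PDK1KO/control), on the x axis for the 34 potassium channel genes above the median, after sham surgery (open circles) and after ablation (filled circles), with 1 array per condition and dotted lines at 2-fold. No circle reaches 2-fold, and the widest gaps between the circles of a gene are those of Kcnj12 (0.41 and -0.52), Kcnmb1 (0.36 and -0.54) and Kcng4 (-0.85 and 0.03).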

How the data were processed

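Plantaris RNA of 4 conditions was hybridized to 1 Affymetrix Mouse Gene 2.0 ST array each. The authors deposited log2 values for each probe set. That the scale is log2 was taken from the range of the values. Transcriptome Viewer is the analysis tool named in the methods, and the background correction and normalization are not given in the sources used here. The number of arrays, 1 a condition, limits the precision.

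The platform annotation gave the genes of the probe sets. Of 41345 probe sets, 23521 named 1 gene and were used, while 1820 named several and 16004 none. For 1082 genes with several such probe sets, the highest mean over the arrays decided. A linear model with terms for genotype and ablation was fitted to all 22180 genes with limma 3.58.1 in R 4.3.3 (empirical Bayes moderation, Benjamini-Hochberg adjustment, adjusted p under 0.05). The procedure was tested on simulated data. Other software was numpy 2.4.6 and pandas 2.3.3 under Python 3.11.15, with matplotlib 3.10.9 for figures.

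Values are given for genes above the median that were among the 10 highest by mean, were called, were past 2-fold in either genotype, or had 1 of the 3 highest or lowest genotype differences or differences of response. Related genes are given by counts, with up to 4 leading genes a list. Myh11, Acta2 and Cnn1 were chosen after their values were seen. The genes examined and the lists were chosen with earlier results of these data known. The alternatives were averaging over the probe sets of each gene, quantile normalization, median centring, a filter on genes above the median, a trend in the moderation, ablation as the only term, each array left out, stricter p and looser fold cutoffs, and other summaries and level criteria.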

Additional observations from a re-analysis of the deposited data

Results flagged for a closer look

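Kcnmb1, the smooth muscle subunit of the BK channel, moved in opposite directions in the genotypes, with log2 responses of 0.59 in control muscle and -0.31 in M-PDK1KO muscle. The difference between the responses (M-PDK1KO minus control) was -0.90 on the log2 scale, less far from equal responses than that of Kcnj12 (-0.93). Responses had the same direction in both genotypes for 29 of the 34 potassium channel genes above the median. Of all 12018 genes above it, 9819 did, so opposite directions were not particular to Kcnmb1. With 1 array for each condition, this difference was not tested. With 1 array in each group, no search for single deviating samples was possible.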

How the results depend on the processing

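With each array left out in turn and ablation as the only term, the count of genes called higher (5) ranged from 1 to 4 and of genes called lower (10) from 3 to 7. These fits change 2 choices at once. Of the 15 called genes, Kcnf1 was already lost with ablation as the only term on all 4 arrays, as it was with the trend, and Kcnk6 with the former, so their losses cannot be ascribed to an array alone. Kcnf1 and Kcnh5 were left out when only genes above the median were fitted, so that fit could not call them. At an adjusted p under 0.01, 3 genes were called higher and 3 lower. In the remaining fits over 4 arrays, 4 to 6 were called higher and 9 to 14 lower, and no gene was called between genotypes in any fit that held the genotype term.

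At 1.5-fold, 5 genes were higher and 8 lower in control mice (1 and 3 at 2-fold), 6 and 11 in M-PDK1KO mice (2 and 3), and 2 differed between genotypes after sham surgery and 3 after ablation (0 and 0). The median response of the 89 genes, -0.048 in control and -0.0442 in M-PDK1KO mice, became -0.054 and -0.0384 with the mean of probe sets, -0.0412 and -0.0632 with quantile normalization, -0.0682 and -0.0526 with median centring, and the mean over genes was -0.0752 and -0.0698. The cause of these shifts was not tested.

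For the 23 genes given with values, 101 of 115 comparisons with other settings kept the direction and the side of the threshold, 12 newly passed it (Kcnj2 with median centring, the trend and ablation as the only term, Kcnc4 and Kcnj8 with the latter 2, Kcna1 and Kcnj12 with quantile normalization and ablation as the only term, and Kcnn1 with quantile normalization) and 2 no longer did (Kcnk6 with ablation as the only term, Kcnma1 with the mean of probe sets). None changed direction, but the trend and ablation as the only term leave the response unaltered, so those comparisons could not change its direction. Among these genes the mean of probe sets altered only the responses of Kcna4, Kcnma1 and Kcnq5, and median centring shifted all responses by the same amount. Only quantile normalization altered the response of each gene by its own amount. A count of the 34 genes above the median alone, chosen after seeing the data, gave 5 higher and 8 lower. No paired analysis was possible because the labels carry no replicate numbers and each condition has 1 array.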

Other observations

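Genes that move sodium and potassium across the membrane without a channel were measured for 10 of 14 symbols. Of the 10, 6 rose and 2 fell after ablation, against 10.4% and 10.6% of all genes. Their median response was 0.57 in control muscle and 0.56 in M-PDK1KO muscle. Atp1b4, a relative of the sodium pump beta subunits whose product lies in the nuclear membrane of placental mammals, rose by 2.09 and 2.37 on the log2 scale. Fxyd5, a regulator of the sodium pump, rose by 1.95 and 1.59, whereas Slc12a2, the sodium, potassium and chloride cotransporter, fell by 0.78 and 1.22. Atp1b3, a sodium pump beta subunit, rose by 0.70 and 0.86.

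Fiber type genes also moved, beside 10.4% of all genes called higher and 10.6% called lower. Of 9 fast fiber genes, 5 fell and 2 (Myh1 and Myh2) rose, with median responses of -0.38 and -0.50, and of 7 slow fiber genes, 5 rose and 1 (Myl3) fell, with medians of 2.17 and 1.52. Among markers of cells other than those described above, 2 of 5 endothelial genes and 2 of 4 T cell genes rose, while 1 of 3 Schwann cell genes (Mbp) and 1 of 3 adipocyte genes (Plin1) fell.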
